A study of Mus musculus with 7 samples.

Results

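The Rab GTPases, the vacuolar protein sorting (Vps) genes, the sorting nexins (Snx), the adaptor protein subunits AP-1 to AP-4, clathrin and the EHD ATPases carry cargo between membranes, and 136 of the 12071 gene symbols listed belong to them. They were chosen by name alone: every symbol that begins with Rab, Vps, Snx or Ehd and a digit, or that names an adaptor subunit or a clathrin chain. A symbol with several transcripts was represented by the one with the highest mean. The RNA was that of CCE, feeder-free embryonic stem cells of the mouse. On days 1 to 6 the cells had retinoic acid, the vitamin A derivative that switches on nuclear receptors, at 5 µM and no leukemia inhibitory factor (LIF). On day 0 they had the vehicle DMSO and LIF, which keeps such cells from differentiating. Each of the 7 days had 1 library of RNA depleted of ribosomal RNA, and no label tells if a day was a culture of its own. The effects of LIF withdrawal, of retinoic acid and of the days in culture cannot be told apart.

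Rab proteins are molecular switches: bound to GTP they sit on a membrane and recruit effectors, and each Rab marks a particular compartment. Cargo that enters by clathrin-coated pits, which AP-2 and clathrin build, reaches the early endosome. From there it is recycled to the surface, returned to the Golgi by retromer and sorting nexins with a membrane-bending BAR domain, or packed by ESCRT into vesicles for the lysosome. AP-1, AP-3 and AP-4 select cargo at the Golgi and endosomes, and HOPS, CORVET and GARP tether vesicles before they fuse. In mouse embryos this machinery is well known in the visceral endoderm, an absorptive epithelium, and in stem cells it turns over surface receptors and adhesion proteins.

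Levels are log2 normalized reads, so that 1 unit is a factor of 2, and they are not divided by transcript length unless stated. The 100 members whose mean over the 7 libraries was above the 40th percentile of all symbols, 8.40, are called kept, and 36 fell below it. As the mean takes in all days, a gene low at first could be kept through its later levels. A gene rose or fell where a straight line on day over days 0 to 5, fitted with limma to all 7242 symbols kept, had a Benjamini-Hochberg adjusted p under 0.05. Each slope is given in log2 units a day, ± SE over 6 libraries. Such a p measures the scatter of single libraries about a line, and not the spread between cultures. Day 6 is described apart because its values differed with transcript length. The libraries held 7194325 to 17923852 recovered reads, and counting intervals are exact binomial 95% intervals, which cover counting error only.

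The cultures changed in kind over these days. The summed linear level of 8 pluripotent stem cell markers was 36.2-fold lower on day 5 than on day 0, with 8 of 8 lower. That of 12 extraembryonic endoderm markers was 13.5-fold higher with 10 of 12 higher, that of 7 fibroblast markers 37.6-fold higher with 6 of 7 higher, and that of 5 neural progenitor markers 6.48-fold higher with 4 of 5 higher. Summed levels of 5 listed neuron markers, which include the member Rab3a, were 3503 on day 5 and 5412 on day 0, with 4 of 5 higher on day 5 and Stmn2 lower (8.68 on day 5 and 11.73 on day 0 in log2 normalized reads). Those of 3 listed macrophage markers were 308 on day 5 and 5329 on day 0, with 2 of 3 lower. The values are logs and hold no 0, so the absence of a marker cannot be read from them. On day 6 Nanog and Sox1 stood at 1.46, the worth of 1 read. In such bulk RNA a change in the share of a cell type and a change in RNA per cell cannot be told apart, and the part of these markers in the results that follow was not tested.

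Of the 100 kept members, 33 rose and 4 fell over days 0 to 5, while 63 passed the test in neither direction. Over all symbols kept, 25.7% rose and 26.8% fell. The median slope was 0.06 among the kept members and -0.0012 among all kept symbols, and 76 members had a slope above 0. Day 3 was the highest of days 0 to 5 for 1 of the risers, day 4 for 20 and day 5 for 12. Risers were found among the Rab GTPases (13 of 27 kept), the sorting nexins with a BAR domain (5 of 9), ESCRT (5 of 9) and AP-3 (3 of 5). HOPS and CORVET (7 kept), GARP (3), the Vps13 lipid transfer genes (4), AP-1 (4), AP-4 (2) and clathrin (3) held no gene that passed in limma. At an unadjusted p under 0.05, 2 HOPS and CORVET genes and 1 clathrin chain rose and 1 AP-1 subunit fell, while the counts of GARP, Vps13 and AP-4 stayed at 0; voom, limma with weights on the recovered reads, called 0 in all 6.

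These counts leaned on single libraries. All 37 called members kept the sign of their slope when each of days 0 to 5 was left out in turn. Only 9 of the 33 risers and 1 of the 4 fallers, Snx5, stayed called each time. The 9 risers were Ap3b1, Rab12, Rab14, Rab18, Rab21, Rab34, Snx13, Vps37a and Vps37b. Among the rest, Rab2a, Rab11a, Rab22a, Snx1, Snx6, Snx30, Vps26a and Ap3s1 were not called without day 0. Rab3il1 was not called without day 0 or without day 4, and Vps35 not without day 0, 1 or 4. Without day 0, 12 rose and 1 fell, and without day 4, 18 rose and 1 fell. Each such fit has 1 library fewer, and the shares of all kept symbols were not counted in it. With each library centred on its median, 28 rose and 7 fell, and Ap1m1, Rab1b and Rab35 joined the fallers; over all symbols kept 22.4% rose and 32.4% fell in that fit. With quantile normalization 29 rose and 5 fell (21.6% and 29.0% of all kept symbols), and Rab8a, Rab10, Rab34, Snx14, Vps4a, Vps36 and the faller Ap2a1 were not called. With transcript length corrected for, 33 rose and 8 fell (24.6% and 25.5% of all kept symbols), Ap3d1, Rab10 and Snx19 were not called, and Rab3gap2, Vps13a, Vps13c and Vps13d joined the fallers.

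**Figure D1:**
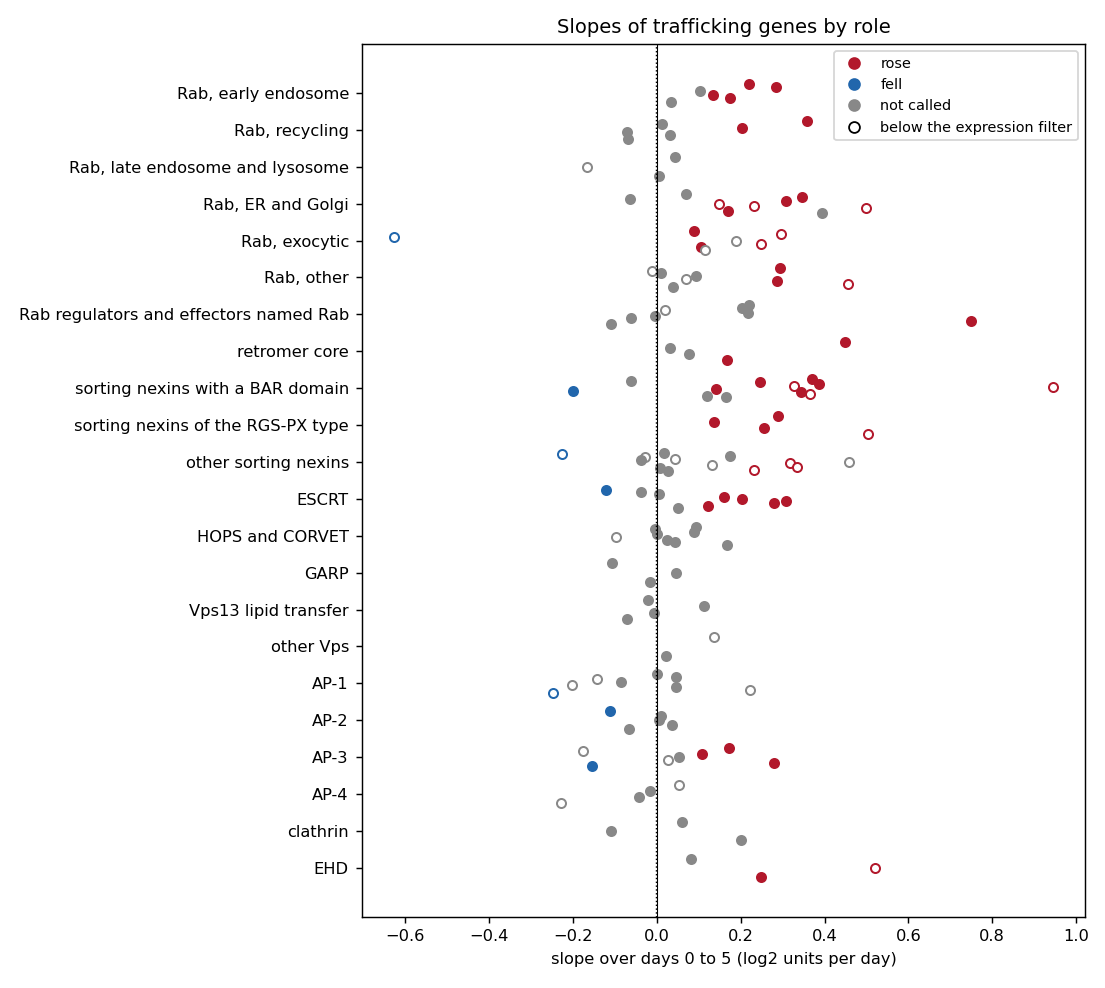
Slope over days 0 to 5 in log2 units per day (horizontal axis) of each of the 136 members, grouped by role; filled points are kept members, hollow points are members below the expression filter, fitted without it, and red, blue and grey mark rose, fell and not called. The kept members that rose reach 0.75 (Rab3il1), and HOPS, GARP, Vps13, AP-1, AP-4 and clathrin show grey filled points only.

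Among the Rab GTPases of the early endosome, 4 of 6 kept members rose and none fell. Rab22a, which acts in early endosome sorting, stood at 8.24, 8.72, 9.30, 9.56, 9.67 and 9.60 on days 0 to 5, and Rab21, known for the traffic of integrins, at 8.25, 8.72, 8.88, 8.91, 9.33 and 9.42. Both climbed through most days, with slopes of 0.28 ± 0.06 and 0.22 ± 0.04 (limma adjusted p = 0.00837 and 0.00575). The Rab5 switches that define this compartment moved unequally. Rab5b rose (0.17 ± 0.04, adjusted p = 0.0126) and so did Rab5a (0.13 ± 0.04, adjusted p = 0.0201). Rab5c, the most abundant of them per length on day 5, had a slope of 0.03 ± 0.04 (adjusted p = 0.481).

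Of the recycling Rabs 2 of 6 rose. Rab11a (chr9:64563106-64585563 in mm9), the switch of the recycling endosome, had 9.32, 9.78, 10.77, 11.05, 11.13 and 10.97 on days 0 to 5, with 333 reads on day 0. The step up to day 2 was the greatest, and the level then stayed near 11. Rab11a was 3.14-fold higher on day 5 than on day 0, a log2 difference of 1.65 (interval 1.48 to 1.82), with a slope of 0.36 ± 0.08 (adjusted p = 0.0114). Its near copy Rab11b stood at 11.10 on day 0 and between 11.19 and 11.35 on days 1 to 5, with a slope of 0.01 ± 0.03 (adjusted p = 0.763). The log2 ratio of Rab11a over Rab11b was -0.22 on day 5, against -1.78 on day 0. Rab14, which works between Golgi and endosomes, rose (0.20 ± 0.03, adjusted p = 0.00478), and Rab35 had a slope of -0.07 ± 0.03 (adjusted p = 0.0875).

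Rab7, the switch of late endosomes and lysosomes, had 11.05, 10.75, 10.96, 11.07, 11.22 and 11.05 on days 0 to 5, and its slope was 0.04 ± 0.04 (adjusted p = 0.362). Rab9, which serves the return to the Golgi, had a slope of 0.00 ± 0.05 (adjusted p = 0.947). Neither of the kept late endosomal Rabs passed in limma, at an unadjusted p under 0.05 or by voom. Per kilobase of listed transcript Rab7 had the highest level of the kept members on day 5, 3380, but its listed transcript is 629 bases long and the value depends on that length.

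On the secretory side, 3 of 6 kept Rabs of the endoplasmic reticulum and Golgi rose. Rab18, linked to the endoplasmic reticulum and lipid droplets, stood at 9.61, 9.65, 10.28, 10.46, 10.95 and 11.21 on days 0 to 5. Rab2a, which acts between endoplasmic reticulum and Golgi, stood at 9.73, 10.29, 11.19, 11.19, 11.31 and 11.28. Rab18 climbed up to day 5 while Rab2a was near its highest level from day 2. Their slopes were 0.35 ± 0.04 (adjusted p = 0.0024) and 0.31 ± 0.07 (adjusted p = 0.014), and on day 5 they were 3.04-fold and 2.91-fold above day 0. Rab6, of Golgi traffic, rose less steeply (0.17 ± 0.04, adjusted p = 0.0183), and its span overlaps Mrpl48 on the other strand. Rab6b had the steepest slope of this group, 0.39 ± 0.14, with an adjusted p of 0.0562.

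The exocytic Rab8a and Rab10, which bring vesicles to the plasma membrane, both rose by little (0.10 ± 0.04 and 0.09 ± 0.03, adjusted p = 0.043 and 0.0461). Neither passed in median-centred libraries or with quantile normalization. With 1 day left out in turn, Rab8a was called in 0 of 6 fits and Rab10 in 1 of 6. Of 5 other kept Rabs 2 rose. Rab12 had 8.68, 8.55, 9.07, 9.48, 9.79 and 9.91 on days 0 to 5, and Rab34, linked to ciliogenesis and lysosome position, had 7.88, 8.03, 8.31, 8.69, 8.88 and 9.30. Both were highest on day 5, with slopes of 0.29 ± 0.05 (adjusted p = 0.00394) and 0.29 ± 0.04 (adjusted p = 0.00281), and Rab34 was not called with quantile normalization. Rab23, known as a brake on Hedgehog signalling, had a slope of 0.01 ± 0.03 (adjusted p = 0.813). No Rab GTPase that was kept fell, and at an unadjusted p under 0.05 and with limma voom on the recovered reads the count was also 0; 14 of 27 rose by either.

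Among 7 kept regulators and effectors named after Rabs, 1 rose. Rab3il1 (chr19:10092717-10110076 in mm9), an exchange factor that loads Rabs with GTP, had the steepest slope of the kept members. It stood at 6.03, 6.49, 9.05, 9.84, 9.59 and 9.26 on days 0 to 5, and its 34 reads on day 0 were the fewest of any kept member over these days. The jump came between days 1 and 2, and on day 5 Rab3il1 was 9.39-fold above day 0 (log2 difference 3.23, interval 2.73 to 3.78), with a slope of 0.75 ± 0.19 (adjusted p = 0.0177). The related exchange factor Rab3ip had 9.45, 9.73, 10.02, 9.76, 9.23 and 9.04 on the same days (slope -0.11 ± 0.07, adjusted p = 0.226). The log2 ratio of Rab3ip over Rab3il1 was -0.22 on day 5, against 3.42 on day 0. The Rab11 effectors Rab11fip1, Rab11fip3 and Rab11fip5 were 2.25-fold, 2.27-fold and 2.25-fold higher on day 5 than on day 0, and none passed the slope test (adjusted p = 0.131, 0.0549 and 0.0947).

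**Figure D2:**
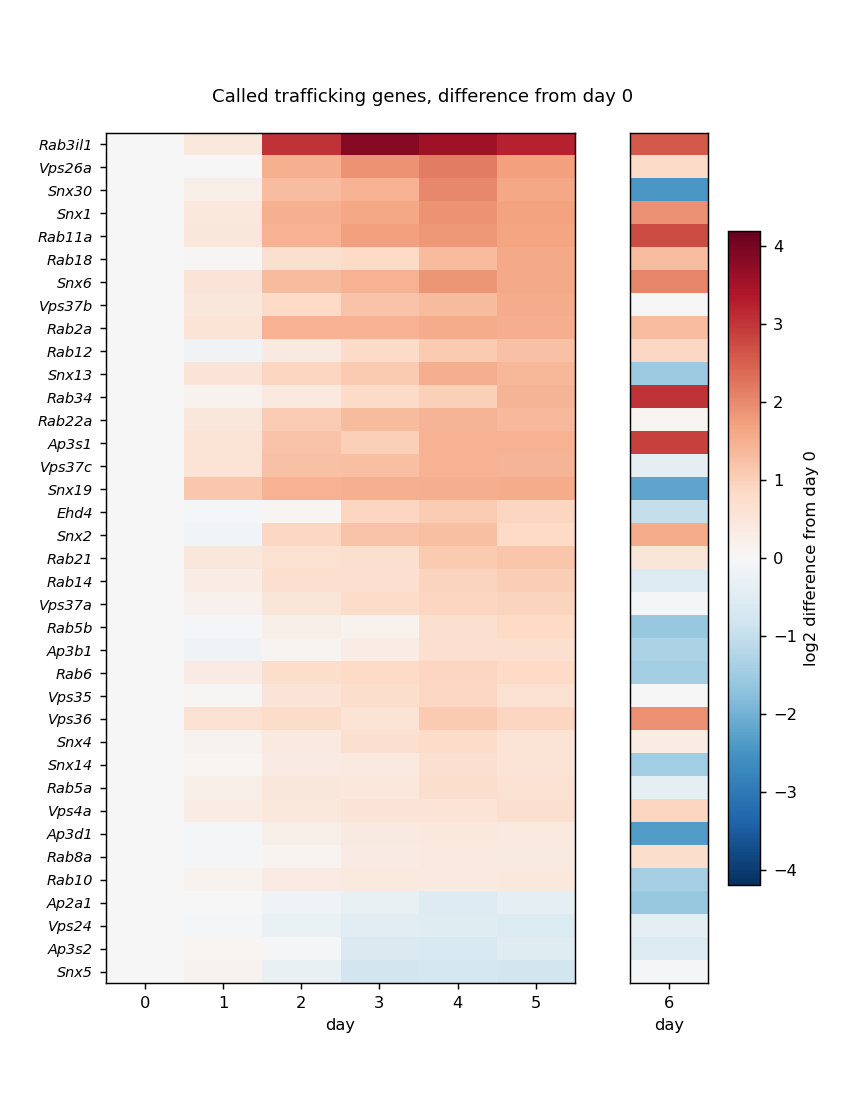
Log2 level minus that of day 0 (colour, from blue for lower to red for higher) on days 0 to 6 (columns) for the 37 kept members called over days 0 to 5 (rows), with day 6 set apart. Rab3il1 is the row that departs furthest, and Snx5, Ap3s2, Vps24 and Ap2a1 are the rows that fell.

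Retromer and its sorting nexins changed part by part. In retromer, which returns receptors from endosomes to the Golgi and the surface, 2 of 4 core genes rose. Vps26a (chr10:61917590-61949553 in mm9), 1 of a pair of alternative cargo-binding subunits, had 9.25, 9.22, 10.73, 11.15, 11.41 and 10.98 on days 0 to 5, and its partner Vps35 had 11.48, 11.52, 12.01, 12.22, 12.35 and 12.12. Both were level on days 0 and 1, stepped up on day 2 and were highest on day 4. Vps26a was 3.32-fold higher on day 5 than on day 0 (log2 difference 1.73, interval 1.56 to 1.91; slope 0.45 ± 0.11, adjusted p = 0.0143), and Vps35 1.56-fold higher (slope 0.17 ± 0.05, adjusted p = 0.0225). The alternative subunit Vps26b stayed between 10.26 and 10.59 (slope 0.03 ± 0.03, adjusted p = 0.481), and Vps29 had a slope of 0.08 ± 0.05 (adjusted p = 0.226). The log2 ratio of Vps26a over Vps26b was 0.495 on day 5, against -1.01 on day 0. Vps26b overlaps Thyn1 on the other strand.

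Of the sorting nexins with a BAR domain 5 of 9 kept rose and 1 fell. Snx1 and Snx2 pair with Snx5 and Snx6 to bend the endosome membrane for retromer cargo. Snx1 had 8.91, 9.36, 10.39, 10.55, 10.80 and 10.61 on days 0 to 5, and Snx6 had 9.22, 9.76, 10.54, 10.67, 11.06 and 10.82. Snx5 (chr2:144075861-144096267 in mm9), in contrast, had 12.40, 12.56, 12.08, 11.62, 11.67 and 11.63. Snx1 and Snx6 ran side by side upward and were highest on day 4, while Snx5 was above both throughout and lowest on day 3. Snx1 was 3.24-fold and Snx6 3.02-fold higher on day 5 than on day 0 (slopes 0.37 ± 0.08 and 0.34 ± 0.07, adjusted p = 0.00943 and 0.00761), and Snx2 1.78-fold higher (0.25 ± 0.08, adjusted p = 0.0426; not called in median-centred libraries). Snx5 was 1.72-fold lower on day 5 (log2 difference -0.78, interval -0.86 to -0.70; slope -0.20 ± 0.05, adjusted p = 0.0126). Per kilobase of transcript its level was 1324 on day 5, against 2272 on day 0. The log2 ratio of Snx6 over Snx5 was -0.81 on day 5, against -3.18 on day 0.

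**Figure D3:**
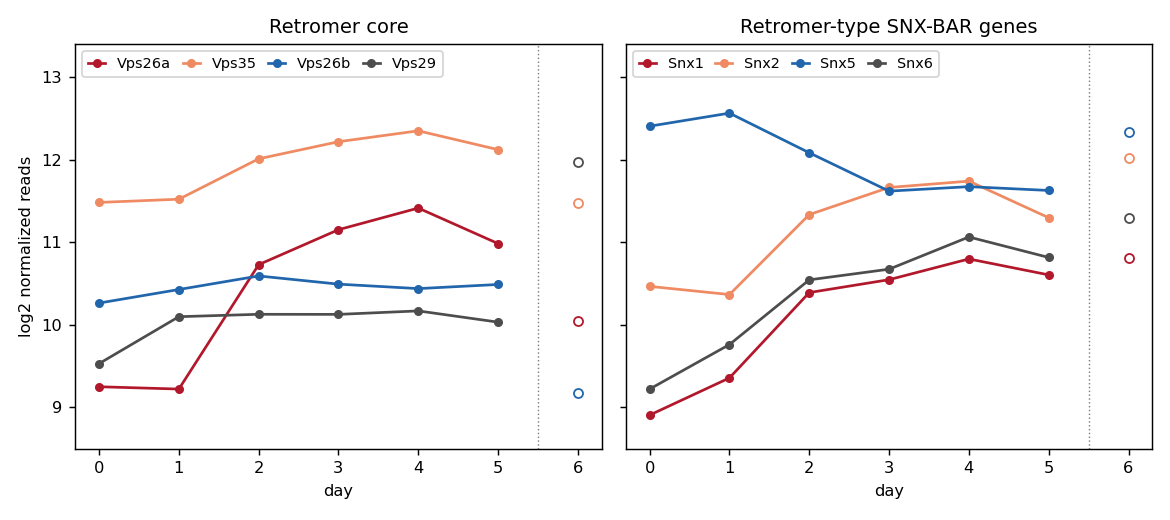
Level in log2 normalized reads (vertical axis) by day (horizontal axis) of the 4 retromer core genes (left) and of Snx1, Snx2, Snx5 and Snx6 (right), 1 library a day; lines join days 0 to 5 and hollow points are day 6. Vps26a crosses Vps26b on day 2, and Snx5 runs down while the other sorting nexins run up.

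The starts of Rab11a, Snx1, Snx6 and Snx5 are shown because 3 of these genes rose and 1 fell. Each run is the genome sequence from 250 bases before to 50 after the transcription start, 5′ to 3′ on the gene's strand, from RefSeq on GRCm38.p6, a later build than the mm9 positions of the deposited table. All 4 genes lie on the minus strand. Capitals mark matches on either strand. The motifs matched in these windows, of 9 searched, were the GC box with the letters GGGCGG, the box named after its own letters CCAAT, the motif of ETS factors with the letters CCGGAAG, and the E-box with the letters CACGTG.
Rab11a chr9:64737707-64738006: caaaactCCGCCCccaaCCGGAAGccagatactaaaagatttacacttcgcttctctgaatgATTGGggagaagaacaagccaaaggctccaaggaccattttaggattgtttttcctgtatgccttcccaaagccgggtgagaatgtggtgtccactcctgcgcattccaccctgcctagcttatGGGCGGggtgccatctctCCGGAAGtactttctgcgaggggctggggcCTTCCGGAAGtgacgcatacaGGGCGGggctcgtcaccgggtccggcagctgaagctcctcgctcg
Snx1 chr9:66124837-66125136: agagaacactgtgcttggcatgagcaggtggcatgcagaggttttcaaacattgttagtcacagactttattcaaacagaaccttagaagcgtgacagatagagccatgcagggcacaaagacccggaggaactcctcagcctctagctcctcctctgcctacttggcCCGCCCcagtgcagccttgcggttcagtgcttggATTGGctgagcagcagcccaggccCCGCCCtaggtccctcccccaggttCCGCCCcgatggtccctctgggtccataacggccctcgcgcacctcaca
Snx6 chr12:54795613-54795912: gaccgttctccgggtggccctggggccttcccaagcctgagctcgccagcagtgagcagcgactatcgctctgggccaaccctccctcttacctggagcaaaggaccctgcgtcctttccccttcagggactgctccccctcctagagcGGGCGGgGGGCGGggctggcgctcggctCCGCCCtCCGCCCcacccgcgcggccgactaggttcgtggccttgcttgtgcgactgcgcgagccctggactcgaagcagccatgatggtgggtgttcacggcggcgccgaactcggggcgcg
Snx5 chr2:144270523-144270822: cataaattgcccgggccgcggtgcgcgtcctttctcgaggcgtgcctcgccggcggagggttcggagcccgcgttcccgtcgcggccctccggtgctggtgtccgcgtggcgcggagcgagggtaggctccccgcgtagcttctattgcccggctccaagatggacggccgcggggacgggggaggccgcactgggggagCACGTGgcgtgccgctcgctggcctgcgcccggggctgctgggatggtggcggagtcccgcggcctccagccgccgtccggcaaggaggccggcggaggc
The windows of Rab11a, Snx1 and Snx6 hold 3, 3 and 4 GC boxes, and that of Rab11a 4 ETS matches, of which 2 overlap each other on opposite strands. The Snx5 window holds an E-box and no GC box, and that of Rab11b, which passed in neither direction and is not shown, a CCAAT box and no GC box either. These windows were picked by the slopes of their genes. The GC box stood in 68.9% of all members' windows, in 71.9% of the risers' windows and in 1 of the 3 fallers' windows. A link between motif and slope was not tested.

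RefSeq promoters were matched for 104 of the 136 members, 132 windows in all. The GC box stood in 68.9% of the members' windows and in 35.7% of the 32851 windows of all genes, the ETS motif in 17.4% and 8.86%, the E-box in 12.9% and 7.15%, and the CCAAT box in 35.6% and 37.4%. The windows of all genes cover 27025 symbols, against 12071 listed here, and shares over the listed symbols alone were not counted. The members' windows were also richer in G and C, with a median of 62% against 52.7% over all genes. Among the 32 windows of members that rose the GC box stood in 71.9%, the ETS motif in 18.8% and the E-box in 18.8%. Among the 3 windows of members that fell each of these stood in 1. The GATA motif AGATAA stood in 6.06% of members' windows and 11.2% of all, and the cyclic AMP motif TGACGTCA in 3.03% and 1.79%. The DR5 and DR2 direct repeats of retinoic acid receptors had no match in the members' windows, and each stood in 0.00913% of all windows. The palindromic NRF1 motif had no match in the members' windows and stood in 0.971% of all. These are matches of letters in a short window and say nothing about binding.

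Snx30 and Snx4, which form a complex on endosomes, also rose. Snx30 had 8.86, 9.10, 10.16, 10.32, 10.86 and 10.48 on days 0 to 5 (slope 0.39 ± 0.08, adjusted p = 0.00797), and Snx4 had a log2 difference of 0.58 between day 5 and day 0 (slope 0.14 ± 0.04, adjusted p = 0.025). Both were highest on day 4. All 3 kept sorting nexins of the RGS-PX type, named for the RGS and PX domains found in the group, rose. Snx13 had 8.41, 8.96, 9.30, 9.52, 9.95 and 9.80 on days 0 to 5 (0.29 ± 0.05, adjusted p = 0.00479). Snx19 and Snx14 had slopes of 0.25 ± 0.08 and 0.14 ± 0.04 (adjusted p = 0.04 and 0.0193), and Snx19 did not pass once transcript length was corrected for. Of 5 other kept sorting nexins none passed in limma, 1 rose at an unadjusted p under 0.05 and voom called 0. They include Snx3 and Snx27, partners of retromer, with slopes of 0.03 ± 0.03 and 0.01 ± 0.05 (adjusted p = 0.557 and 0.92).

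In ESCRT, which sorts ubiquitin-tagged cargo into vesicles inside the endosome, 5 of 9 kept members rose and 1 fell. The 3 alternative Vps37 subunits of ESCRT-I all rose. Vps37b had 8.14, 8.62, 8.99, 9.35, 9.47 and 9.71 on days 0 to 5, rising at each step, and was 2.95-fold higher on day 5 than on day 0 (slope 0.31 ± 0.04, adjusted p = 0.00289). Vps37c and Vps37a had slopes of 0.28 ± 0.06 and 0.20 ± 0.04 (adjusted p = 0.0108 and 0.00649), and Vps37a overlaps Mtmr7 on the other strand. Vps28, the ESCRT-I subunit with no paralog here, stayed between 8.82 and 9.10 (0.01 ± 0.04, adjusted p = 0.921). In ESCRT-II, Vps36 had a slope of 0.16 ± 0.06 (adjusted p = 0.0479; not called in median-centred libraries) and Vps25 one of -0.04 ± 0.05 (adjusted p = 0.519). Vps4a, 1 of the ATPases that take ESCRT apart, rose slightly (0.12 ± 0.04, adjusted p = 0.0269).

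Vps24, a filament-forming ESCRT-III subunit, was the ESCRT member that fell. It had 10.91, 10.83, 10.64, 10.46, 10.41 and 10.34 on days 0 to 5, lower at each step. On day 5 it was 1.48-fold lower than on day 0 (log2 difference -0.57, interval -0.69 to -0.44; slope -0.12 ± 0.03, adjusted p = 0.0154).

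The tethering complexes gave no call. Slopes of the 7 kept HOPS and CORVET genes, which act before fusion at endosomes and lysosomes, ran up to 0.17 ± 0.07 for Vps8 (adjusted p = 0.0824), and Vps16, Vps33a, Vps39 and Vps41 had slopes between -0.0035 and 0.04. The GARP genes Vps52, Vps53 and Vps54, which receive endosome vesicles at the Golgi, had slopes of -0.11, 0.05 and -0.02 (adjusted p = 0.106, 0.446 and 0.717). The 4 Vps13 genes, which bridge membranes for lipid transfer, lay between -0.07 (Vps13d) and 0.11 (Vps13b); with length corrected Vps13a, Vps13c and Vps13d were called as falling. Vps72, a chromatin protein that shares the prefix but not the pathway, had a slope of 0.02 ± 0.05 (adjusted p = 0.703).

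Of the adaptors, AP-3, which sorts cargo to lysosomes and related organelles, moved most. Of its 5 kept subunits 3 rose and 1 fell. The alternative small subunits went opposite ways: Ap3s1 had 7.91, 8.49, 9.12, 8.91, 9.37 and 9.38 on days 0 to 5, and Ap3s2 had 10.39, 10.49, 10.35, 9.79, 9.74 and 9.88. Ap3s1 was lowest on day 0 and Ap3s2 stepped down after day 2. Ap3s1 was 2.77-fold higher and Ap3s2 1.43-fold lower on day 5 than on day 0 (slopes 0.28 ± 0.06 and -0.15 ± 0.05, adjusted p = 0.00927 and 0.0336). The large subunits Ap3b1 and Ap3d1 rose less (0.17 ± 0.04 and 0.11 ± 0.03, adjusted p = 0.0114 and 0.0274; Ap3d1 was not called in median-centred libraries).

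AP-2, the adaptor of the plasma membrane, had 5 kept subunits, of which Ap2a1 fell and none rose. Ap2a1 had 12.19, 12.18, 12.04, 11.88, 11.64 and 11.77 on days 0 to 5 (slope -0.11 ± 0.03, adjusted p = 0.0241; not called with quantile normalization), and was 1.34-fold lower on day 5 than on day 0. It overlaps Fuz on the other strand. Its paralog Ap2a2 stayed between 12.20 and 12.65 (0.01 ± 0.04, adjusted p = 0.84). None of 4 kept AP-1 and 2 kept AP-4 subunits passed. Ap1m1 had the lowest AP-1 slope, -0.08 ± 0.03 (adjusted p = 0.0797).

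Clathrin's heavy chain Cltc was among the members with the highest levels: per kilobase it had 2938 on day 5, against 1630 on day 0. On days 0 to 5 it stood at 13.30, 13.66, 14.47, 14.62, 14.54 and 14.15 in log2 normalized reads, a hump with its top on day 3. It was 1.80-fold higher on day 5 than on day 0, and its slope of 0.20 ± 0.08 did not pass (adjusted p = 0.0804). The light chain Cltb had 9.84, 8.09, 7.71, 8.70, 8.55 and 8.60 on the same days, high on day 0 and lower on each later day. The other light chain, Clta, stayed between 10.89 and 11.36. Of the EHD ATPases, which shape recycling membranes, Ehd4 rose (0.25 ± 0.06, adjusted p = 0.014), and Ehd1 had a slope of 0.08 ± 0.06 (adjusted p = 0.299).

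The ratio of related genes was followed with day. The 37 pairs were chosen as near copies or related genes, not by a rule on names, with the courses already known. For each, the log2 ratio was set against day over days 0 to 5. The test was a two-sided exact permutation test over the 720 orders of the days. Its smallest p is 0.00278, and adjustment was over the 37 pairs. In 5 pairs, each closer in reads, not corrected for length, on day 5 than on day 0, the adjusted p was 0.0411: Ap3s1 over Ap3s2 (slope of the log2 ratio 0.43 ± 0.06), Rab3ip over Rab3il1 (-0.86 ± 0.18), Snx18 over Snx33 (-1.01 ± 0.28), Snx9 over Snx33 (-0.78 ± 0.15) and Vps37a over Vps37b (-0.11 ± 0.02). The pairs of Snx18 and of Snx9 share Snx33, a member below the filter, and are not separate results. The ratio of Snx6 over Snx5 had a slope of 0.54 ± 0.11 (exact p = 0.00833, adjusted p = 0.0514) and that of Rab11a over Rab11b 0.35 ± 0.08 (exact p = 0.0111, adjusted p = 0.0514). Vps26a over Vps26b had 0.42 ± 0.12 (exact p = 0.0361, adjusted p = 0.103). With 1 day left out no pair passed, and the smallest adjusted p then lay between 0.0881 (without day 1) and 0.206 (without day 0). Fewer orders remain then, and the smallest exact p found was 0.00833 or 0.0167. After adjustment over 37 pairs a pass was hardly within reach, so these fits do not tell if a pair depended on 1 day. With the worth of 16 reads added to each value 0 of 37 passed.

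**Figure D4:**
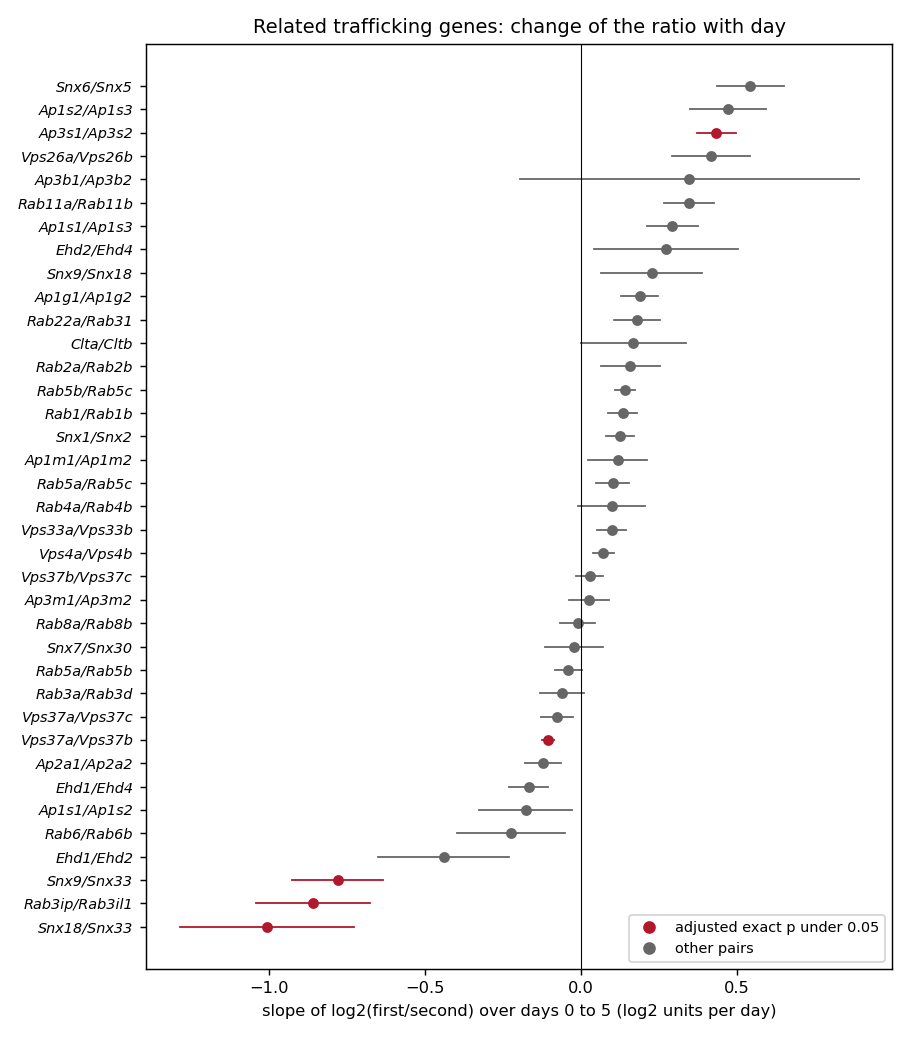
Slope over days 0 to 5 of the log2 ratio of 37 pairs of related genes (points, log2 units per day, with bars ± 1 SE of the fitted line, 6 libraries, and a vertical line at 0). Snx18 over Snx33 lies furthest to the left at -1.01, and Snx6 over Snx5 furthest to the right at 0.54.

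Of the 36 members below the filter, 14 rose and 3 fell when the line was fitted to all listed symbols without it, where 25.9% of all symbols rose and 22.1% fell. Those shares take in symbols above the filter, and shares of the symbols below it alone were not counted. Snx33, related to Snx9 and Snx18, which act in endocytosis, had 4.40, 6.91, 8.68, 8.83, 9.27 and 9.57 on days 0 to 5, that is 11 reads on day 0 and 634 on day 5. It was 35.9-fold higher on day 5 than on day 0 (log2 difference 5.16, interval 4.32 to 6.17; slope 0.94 ± 0.18, adjusted p = 0.00813 without the filter). Ehd2, known at caveolae, was 11.9-fold higher, Snx21 8.22-fold, Rab43 7.07-fold and Snx25 5.47-fold; Snx21 did not pass (adjusted p = 0.0592).

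Rab27a, which docks secretory organelles at the plasma membrane, went the other way with 8.91, 7.11, 6.91, 5.90, 5.69 and 5.58 on days 0 to 5. It was lower at each step and 10.1-fold lower on day 5 than on day 0 (log2 difference -3.33, interval -3.85 to -2.85; slope -0.63 ± 0.11, adjusted p = 0.00673 without the filter). The other fallers were Ap1s3 and Snx11 (adjusted p = 0.0455 and 0.046). Ap1m2, an AP-1 subunit of epithelia, was 2.56-fold lower on day 5 than on day 0, with an adjusted p of 0.0617. Ap3b2, the neuronal AP-3 subunit, had 6.53, 9.89, 11.81, 8.83, 7.49 and 7.33 on days 0 to 5, a pulse with its top on day 2 that a straight line does not describe; it is named after its values were seen.

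The bend of each course was tested as the squared term of day in limma, fitted to all symbols kept. None of the 100 members passed at an adjusted p under 0.05, where 0.0414% of all kept symbols did. At an unadjusted p under 0.05, 21 members passed, all bending downward, where 13.1% of all kept symbols bent downward and 6.82% upward, and voom on the recovered reads called 0. The smallest p values belonged to Rab11fip1 (adjusted p = 0.0567), Cltc, Rab11a, Rab2a, Rab11fip3 and Snx6. Rab11fip1 had 8.68, 9.67, 10.33, 10.41, 10.27 and 9.85 on days 0 to 5, and Rab11fip3 had 9.20, 9.93, 10.51, 10.40, 10.37 and 10.38. Rab11fip1 was highest on day 3 and Rab11fip3 on day 2. With day 0 left out 4 members passed, and with day 1 left out 6, where the shares of all kept symbols were not counted.

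On day 1, after LIF withdrawal and the first retinoic acid, few members stood apart. Only Snx19 was at least 2-fold higher than on day 0 (log2 difference 1.14), and Cltb (-1.75), Rab6b (-1.08) and Snx18 (-1.06) were at least 2-fold lower; over all kept symbols 6.06% were higher and 1.96% lower. Without the filter 8 of 136 members were higher and 4 lower, where all listed symbols gave 9.15% and 4.02%. Rab6b stood at 8.59, 7.51 and 9.94 on days 0 to 2, and Snx18 at 10.56, 9.50 and 10.04. After Snx19, the highest differences on day 1 were those of Rab11fip1, Snx9, Rab11fip3 and Vps36, from 0.99 to 0.64. On day 5, 22 members were at least 2-fold higher than on day 0 and Cltb alone lower, while over all kept symbols 20.9% were higher and 14.1% lower. Without the filter 38 were higher and 3 lower, where all listed symbols gave 25.9% and 15.6%. These are sizes between single libraries and carry no test.

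Other trafficking genes were read from lists of the same or related pathways, in the same fit. Of 34 kept Rab regulators and effectors 13 rose and 4 fell. Rabggta, a subunit of the enzyme that adds the lipid anchor of Rabs, fell (slope -0.35) and so did the Rab chaperone Rabif (-0.24). Eea1, the Rab5 effector that tethers early endosomes, rose (0.36), as did Rabgap1 (0.31), which switches Rabs off. Of 19 ESCRT genes without a Vps name 6 rose and none fell, led by Fam125b (0.97) and Pdcd6ip (0.40); none fell at an unadjusted p under 0.05 or by voom either.

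The list of retromer's cargo and partners, which also holds Commd genes, was mixed, with 3 of 19 rising and 2 falling. Among the risers was Commd3 (0.45). The sorting receptors Igf2r (0.60) and Sort1 (0.47) rose, and Sorl1 (-0.33) and Sorcs3 (-0.20) fell. Of 35 genes listed as clathrin endocytosis partners 15 rose and 4 fell. The list is broad and also holds flotillins and Golgi genes. Of these, Flot1, Flot2, Arfgap1, Arfgef1 and Gga2 were among the risers and Gga3 was among the fallers. The cargo adaptor Dab2 (1.03), also in the endoderm marker list, led the risers, and Arrb2 (-0.26) and Epn2 (-0.23) the fallers.

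Among fusion and secretory genes, 14 of 26 kept SNARE genes rose and 1, Nsf (-0.26), fell, with Stx7 (0.63) and Vamp8 (0.60), SNAREs of the endosome, in front. Of 22 coat genes of endoplasmic reticulum and Golgi vesicles 10 rose, Sec23a (0.36) and Sec24d (0.33) most, and none fell, also at an unadjusted p under 0.05 and by voom. In the exocyst, which tethers vesicles at the plasma membrane, 6 of 10 rose, among them Ralb (0.42) and Exoc4 (0.22), and 1, Exoc1 (-0.10), fell. The share of these lists that rose is to be read against the 25.7% of all kept symbols.

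On day 6 the members were ordered by transcript length. Across the 100 kept members, the day 6 minus day 5 difference had a Spearman rho of -0.76 with length, and across all kept symbols -0.78, a description over genes of the same libraries. The slope over days 0 to 5 had a rho of 0.00046 with length among the members and 0.23 among all kept symbols. At least 2-fold higher on day 6 than on day 5 were 14 members, and 45 were lower, where all kept symbols gave 18.6% and 51.7%. The highest differences were those of Vps28 (2.03), Vps29 (1.94), Clta (1.68), Rab34 (1.62) and Ap2s1 (1.57), and the lowest those of Snx30 (-4.07), Rab11fip3 (-4.06), Snx19 (-3.77), Snx18 (-3.45) and Vps13b (-3.33). The part of transcript length and of the lower depth of the day 6 library in these differences was not tested. With day 6 in the fit, Ap3s1, Rab11a and Rab34 rose and none fell, where 1.60% of all kept symbols rose and 3.78% fell.

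**Figure D5:**
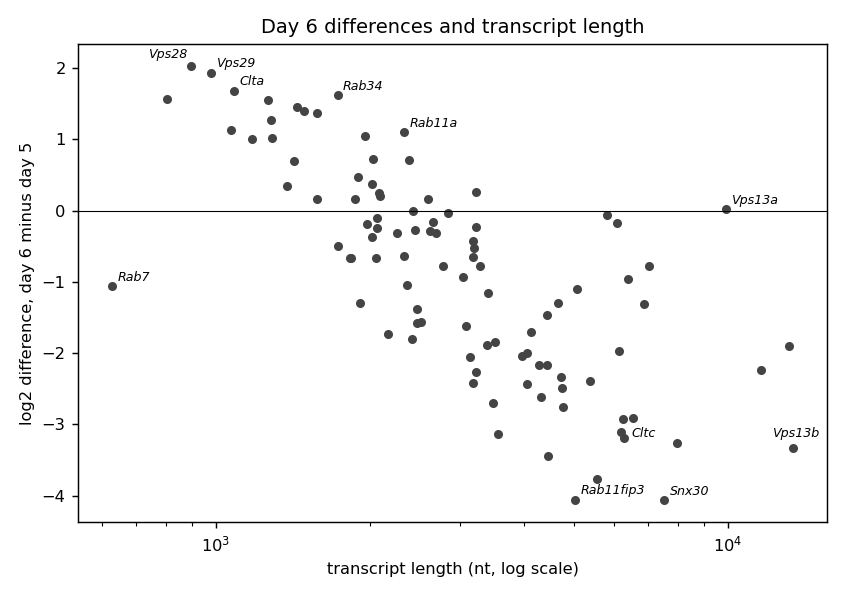
Day 6 minus day 5 difference in log2 units (vertical axis) against transcript length in bases (horizontal log axis) for the kept members, with some members named. Short transcripts such as Vps28 (2.03) lie high and long ones such as Snx30 (-4.07) lie low.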

How the data were processed

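RNA-seq of 7 libraries, 1 per day, was used. Stranded libraries were made from ribosomal-RNA-depleted total RNA, per the labels' protocols, and reads were aligned with BWA 0.7.3 to mm9, per the submitters' processing notes; the sources used here name no counter, strand setting, scaling or treatment of reads shared by near copies. Per RefSeq transcript, of which 15296 are listed, the deposited values are log2 reads scaled by library. Raised from the log, all values of up to 1000 reads lay within 0.05 of whole multiples of 1 factor per library, 100% in each, so reads could be recovered, taking the lowest value as 1 read. Each library was then a group of its own, so days are compared by a trend or by size.

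Lines and squared terms on day were fitted over days 0 to 5 with limma 3.58.1 (empirical Bayes, mean trend) in R 4.3.3, with Benjamini-Hochberg adjustment over the 7242 symbols kept; the scripts were tested on simulated data. Exact permutation tests enumerated every order of the days, and counting intervals came from scipy 1.17.1. Lists and members were chosen with earlier results of these data known. Members named in full are the 12 steepest called slopes in each direction, the 6 smallest p of the squared term, the 5 extremes of days 1 and 6 and of the members below the filter, complex subunits as examples, and from each list the 2 largest called slopes in each direction, of which some are not reported here; others were chosen after their values were seen. The alternatives were other scalings, filters, a pseudocount of 16 reads, length correction, summed transcripts, all 7 days, each day left out and, added after the data were seen, voom and the paralog ratios. Promoters came from RefSeq tables on GRCm38.p6. Positions in mm9 count from 1.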

Additional observations from a re-analysis of the deposited data

How the results depend on the processing

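The slopes of the 100 kept members were recomputed under 14 alternatives; called slopes changed sign under 1 of them, day 6 in the fit. There 3 members rose and 0 fell, against 33 and 4 over days 0 to 5, and of the 63 slopes not called 29 changed sign. Of the 33 risers, 12 turned negative: Ap3b1 -0.063, Ap3d1 -0.21, Ehd4 -0.0033, Rab10 -0.12, Rab14 -0.0010, Rab5a -0.0032, Rab5b -0.096, Rab6 -0.11, Snx13 -0.080, Snx14 -0.11, Snx19 -0.21 and Snx30 -0.14; the cause was not tested. Leaving out 1 day gave 12 to 36 rising and 1 to 5 falling members, 0 to 6 members bending downward and 0 passing pairs each time. With so few orders left, a passing pair was hardly within reach there. The shares of all kept symbols were not counted with a day left out. Falling members numbered 7 with no filter (46 rose, of 136), 7 in median-centred libraries and 8 with length corrected. Of single-day counts, day 1 gave 0 higher with quantile normalization and 8 with no filter, day 5 gave 38 higher and 3 lower with no filter and 0 lower with length corrected, and day 6 gave 30 higher and 24 lower in median-centred libraries, 6 higher with length corrected and 19 lower with quantile normalization. Shares of all kept symbols were not counted for these single-day counts, and those of all listed symbols are given above for the counts with no filter. Of the pairs, 11 passed with all 7 libraries, 7 with length corrected and 0 with the pseudocount. With all 7 libraries Vps37a over Vps37b and Snx9 over Snx33 no longer passed (permutation test, adjusted p = 0.556 and 0.402). That fit holds day 6, whose values differed with transcript length. Median-centring moved the median of all kept symbols to -0.15 for day 5 minus day 0, against 0.04 as deposited, and to -0.055 for day 6 minus day 5, against -1.11. No paired analysis was possible because each day has 1 library. Single-day values have no replicate, and low members such as Snx33 rest on few reads on day 0.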

Other observations

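Several transcripts were listed for 20 of the 136 members, and in 18 of them the ratio of the longest to the shortest transcript moved under 1.2-fold over days 0 to 5. The exceptions were Snx12, a retromer-linked sorting nexin, and Snx27, which links retromer to PDZ-binding cargo. The reads of the longest over the shortest transcript of Snx12 (2431 and 1005 bases) had a ratio of 1.77, 1.67, 2.17, 2.17, 2.25 and 2.34 on days 0 to 5 and 1.30 on day 6. For Snx27 (6259 and 2329 bases) the ratio was 2.04, 2.47, 2.63, 2.46, 2.59 and 2.72 on days 0 to 5 and 1.43 on day 6. Transcripts of a gene can share reads, and these ratios were not tested.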
